A study of Homo sapiens with 6 samples.

Results

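Genes of the epithelial cell junctions, the regulators that keep cells epithelial and the factors and markers of the epithelial-mesenchymal transition (EMT) were examined in DLD-1 cells with and without DKK1. DLD-1 is an established line of human colorectal adenocarcinoma in which APC is mutated. A doxycycline-inducible lentivirus had brought DKK1, a secreted inhibitor of Wnt signalling, into the cells (DLD-1/DKK1), or an empty version of the same vector (DLD-1/Mock). Both groups received doxycycline for a day, at 10 mg/ml according to the labels and in micrograms per ml at the same figure according to the methods. The virus was used at a multiplicity of infection of 10 to 60 and typically transduced more than 95% of the cells, and the labels name no selection of a clone. DKK1 carried a V5 tag and its vector expressed green fluorescent protein as well. RNA of 3 dishes per group was hybridised to 6 whole-transcript arrays.

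The list held 37 genes, chosen by their role. A gene was measured where at least 1 probe set of the array was paired with its symbol alone, and the probe set with the highest mean over the 6 arrays stood for the gene. This gave 33 members among 18404 genes measured in the same way. CTNND1, F11R, OCLN and ESRP1 were not analysed here. The 33 fell into 3 genes of the adherens junction, 9 of the tight junction, 9 of the desmosome, 3 epithelial regulators, 6 EMT transcription factors and 3 mesenchymal markers. All values are log2 expression, and the number of arrays limits their precision.

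Epithelial cells are held together by 3 kinds of contact, described here as background. In the adherens junction, cadherins bind those of the next cell and are tied to actin through catenins. In the tight junction, claudins seal the space between cells and are anchored by scaffold proteins of the ZO family, and in the desmosome, desmogleins and desmocollins are tied to keratin filaments through plakoglobin, plakophilins and desmoplakin. During EMT, transcription factors of the SNAI, ZEB and TWIST families repress such genes, while GRHL2, OVOL1 and the splicing factors ESRP1 and ESRP2 are known to hold the epithelial state. ZEB1 and ZEB2 are in turn held down by the microRNAs of the miR-200 family.

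The arrays fitted their labels. DKK1 read 5.15, 5.74 and 5.01 in DLD-1/Mock and 12.30, 12.38 and 12.36 in DLD-1/DKK1, a log2 fold change of 7.05 with an SE of 0.18 and a limma adjusted p of 0.00015. The two-sided exact permutation p was 0.1, and 3 arrays against 3 cannot go lower. Mock 2 correlated least with the rest, at 0.9953 to 0.9969 across probe sets, against at least 0.9973 for all other pairs. Epithelial markers of the colon were bright, with EPCAM at a mean of 12.85, KRT8 at 12.88, CDX2 at 10.59 and CDH17 at 11.93, whereas GPA33, a surface antigen of intestinal epithelium, was at 6.53, percentile 46.5 of all probe sets. The fibroblast genes DCN and LUM and the leukocyte gene PTPRC were near the bottom of the scale, at means of 4.39, 4.19 and 4.34, whereas the fibroblast genes ACTA2 and COL1A1 and the leukocyte genes CD68 and CD14 lay in its middle, at 7.71, 7.45, 7.35 and 6.23.

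No member of the junction and EMT list passed an adjusted p of 0.05 in limma. Among all 32321 probe sets 0.0866% passed, and among the 18404 genes 0.136%. At an unadjusted p under 0.05 there were 2 of 33 members (6.06%), JUP and PPL of the desmosome, both lower in DLD-1/DKK1, against 10.1% of all genes. The arrays of one group lay entirely above those of the other for 4 members, CDH3 and GRHL2 higher and JUP and PPL lower in DLD-1/DKK1, while 19.5% of all genes had groups that did not overlap. The median log2 fold change of the members was -0.01, as it was over all genes. The 95% intervals of all 33 members lay within a 1.5-fold change in either direction, which was also true of 99.3% of all genes, and these intervals cover the spread between arrays only. In such cultures, fewer cells that express a gene and less RNA per cell cannot be told apart.

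**Figure D1:**
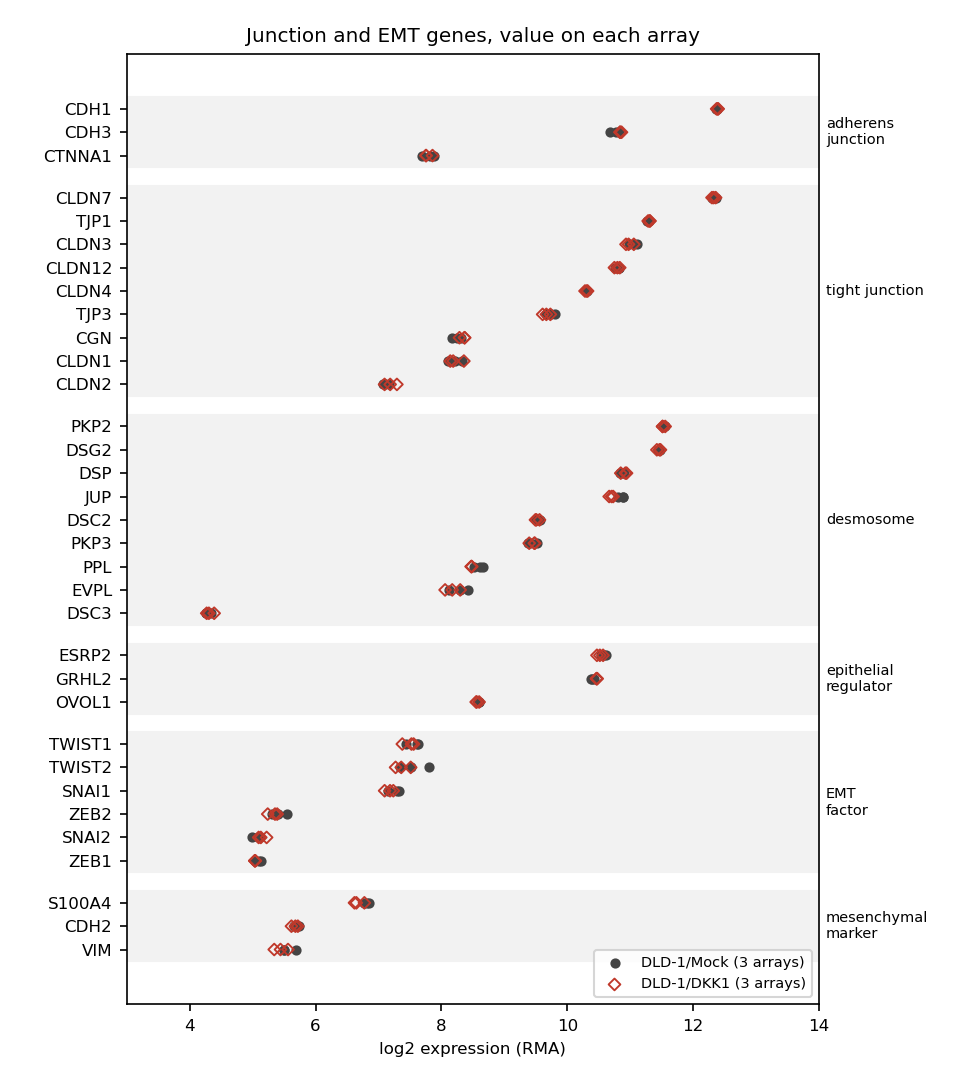
Log2 expression (horizontal axis) of the 33 measured junction and EMT genes, with a point for each array, filled circles for DLD-1/Mock and open diamonds for DLD-1/DKK1, 3 arrays each. The 2 groups lie over each other for most genes, and CDH1 spans 12.37 to 12.40 over all 6 arrays.

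**Figure D2:**
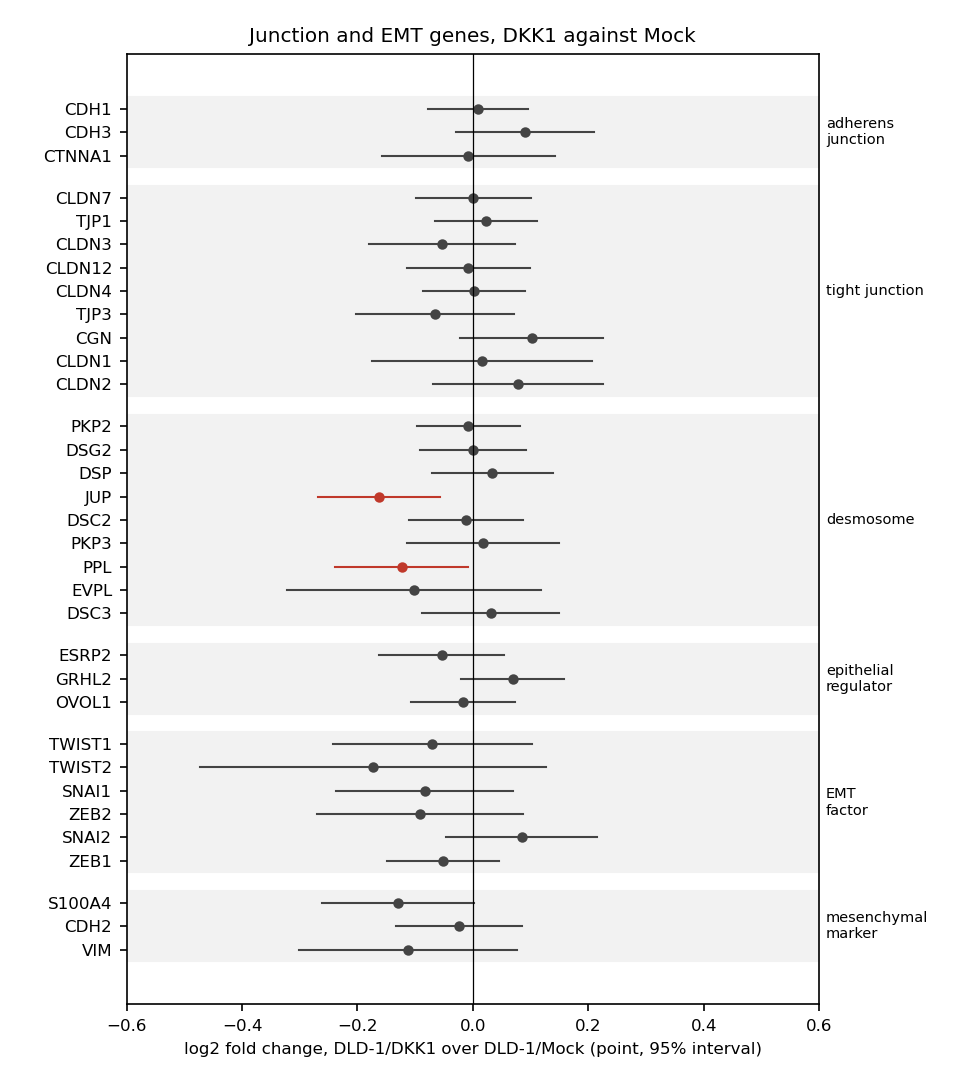
Difference with DKK1 against Mock as log2 fold change (horizontal axis) for the same 33 genes; points are limma estimates and lines their 95% intervals (n = 3 arrays in each group), drawn in red where the unadjusted p was under 0.05. JUP lies at -0.16 and PPL at -0.12, and the intervals span -0.47 to 0.23.

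The 3 adherens junction genes lay close between the groups. CDH1, which encodes E-cadherin, read 12.37, 12.38 and 12.39 in DLD-1/Mock and 12.39, 12.40 and 12.37 in DLD-1/DKK1. The groups overlapped, and the log2 fold change was 0.01 with a 95% interval of -0.08 to 0.09 (limma adjusted p = 0.952). Its sign turned to -0.01 after quantile normalisation or cyclic loess. CDH3, which encodes P-cadherin, read 10.67, 10.78 and 10.82 in DLD-1/Mock and 10.86, 10.84 and 10.84 in DLD-1/DKK1. Every DLD-1/DKK1 array was above every DLD-1/Mock array, by as little as 0.02 between the nearest, and the log2 fold change of 0.09 did not pass (limma adjusted p = 0.609). CTNNA1, the alpha-catenin that links cadherins to actin, had a log2 fold change of -0.01, with an interval of -0.16 to 0.14.

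Of the 9 tight junction genes, 0 passed and 0 had an unadjusted limma p under 0.05, with log2 fold changes of -0.07 to 0.10 and a median of 0.00. TJP1, which encodes the scaffold ZO-1, read 11.28, 11.26 and 11.30 in DLD-1/Mock and 11.32, 11.31 and 11.28 in DLD-1/DKK1, so that the groups overlapped and the 95% interval of the difference was -0.07 to 0.11. Among the claudins, the differences were -0.05 for CLDN3, 0.00 for CLDN4, 0.00 for CLDN7, 0.02 for CLDN1 and -0.01 for CLDN12. CLDN2, which forms a channel for cations and makes epithelia leakier, had 0.08 with an interval of -0.07 to 0.23. TJP3, a further ZO scaffold, had -0.07, and CGN, the cytoplasmic plaque protein cingulin, had 0.10, the highest log2 fold change among the 33 members. CGN read 8.30, 8.17 and 8.24 in DLD-1/Mock and 8.29, 8.37 and 8.37 in DLD-1/DKK1, where DKK1 1 fell below Mock 1.

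The desmosome held both members with an unadjusted p under 0.05, 2 of its 9 genes (22.2%), against 10.1% of all genes. Both were lower in DLD-1/DKK1, as were 5.45% of all genes at this p. JUP, which encodes plakoglobin, a relative of beta-catenin found in desmosomes and adherens junctions alike, read 10.80, 10.89 and 10.89 in DLD-1/Mock and 10.67, 10.73 and 10.70 in DLD-1/DKK1. All DLD-1/DKK1 arrays were below all DLD-1/Mock arrays. The mean was 10.86 ± 0.05 (SD, n = 3) without and 10.70 ± 0.03 (SD, n = 3) with DKK1. The log2 fold change was -0.16 with an SE of 0.04, and neither the limma adjusted p of 0.432 nor the two-sided exact permutation p of 0.1, the smallest possible, passed. PPL, which encodes periplakin, a plakin that links desmosomes to keratins, read 8.66, 8.62 and 8.52 in DLD-1/Mock and 8.48, 8.48 and 8.47 in DLD-1/DKK1. Its arrays did not overlap either, and its log2 fold change was -0.12 (SE 0.05; limma adjusted p = 0.525). The interval of PPL reached -0.01. After median centring neither gene kept an unadjusted limma p under 0.05, with 0.0629 for JUP at -0.11 and 0.217 for PPL at -0.07. PPL also lost it with the replicate number as a block (0.0678), without Mock 1 (0.122) or Mock 2 (0.0816), and without DKK1 1 (0.0892), DKK1 2 (0.0812) or DKK1 3 (0.0893), while JUP kept it in each of these.

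The groups overlapped for the other 7 desmosome genes. DSP, the desmoplakin that anchors keratin filaments, read 10.88, 10.90 and 10.84 in DLD-1/Mock and 10.92, 10.85 and 10.94 in DLD-1/DKK1, with overlapping groups and an interval of -0.07 to 0.14. The adhesive cadherins DSG2 and DSC2 had log2 fold changes of 0.00 and -0.01, and the plakophilins PKP2 and PKP3, which bind desmoplakin at the membrane, -0.01 and 0.02. EVPL, a plakin related to PPL, had -0.10 with an interval of -0.32 to 0.12, the widest of the junction members. DSC3, a desmocollin of stratified epithelia, was near the bottom of the scale at a mean of 4.31, percentile 9.12 of all probe sets.

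Among the epithelial regulators, GRHL2, a transcription factor that activates CDH1 and CLDN4, read 10.39, 10.38 and 10.43 in DLD-1/Mock and 10.47, 10.48 and 10.46 in DLD-1/DKK1. The groups did not overlap, and the log2 fold change was 0.07 with an interval of -0.02 to 0.16 (limma adjusted p = 0.606). ESRP2, which directs epithelial splicing, had -0.05, and OVOL1, a zinc finger repressor of ZEB1, had -0.02. Of these 3 genes, 0 had an unadjusted limma p under 0.05.

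The EMT transcription factors of the SNAI and ZEB families bind the E-box CACCTG. Promoters were searched for it to show where its letters lie, and other E-box spellings were not searched. The search used the 250 bases before the outermost start of each gene in RefSeq (GRCh38.p14) and both strands, so CAGGTG counted as well, and the 2 spellings cannot overlap. Of the 37 listed genes, 22 had a promoter in the table and 7 of these (31.8%) held at least 1 match, DSP, DSG2, DSC2, TJP1, OCLN, ZEB1 and S100A4, against 17.5% of 27305 promoters of the same length. DSP and DSG2 held 2 matches, and 2.57% of all promoters held 2 or more. CDH1, CDH3, CTNND1, F11R, PKP2, PKP3, PPL, EVPL, ESRP1, ESRP2, GRHL2, OVOL1, SNAI1, SNAI2 and TWIST1 were not searched. The sequences are given 5′ to 3′ on the strand of the gene, with the matches in capitals. DSP is shown as the desmosome gene with matches at -178 and -85 from the start, JUP because it had the smallest p among the members, with 0 matches, and CRB3, a polarity protein of the tight junction, because its 5 matches were the most among all listed genes with a promoter. The windows are chr6:7541421-7541670 (+) for DSP, chr17:41786712-41786961 (-) for JUP and chr19:6464021-6464270 (+) for CRB3.
DSP: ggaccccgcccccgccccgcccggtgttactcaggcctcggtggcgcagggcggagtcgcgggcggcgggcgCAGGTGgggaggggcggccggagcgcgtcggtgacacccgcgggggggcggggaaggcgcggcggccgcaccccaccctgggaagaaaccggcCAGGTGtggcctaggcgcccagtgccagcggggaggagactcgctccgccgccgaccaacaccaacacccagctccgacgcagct
JUP: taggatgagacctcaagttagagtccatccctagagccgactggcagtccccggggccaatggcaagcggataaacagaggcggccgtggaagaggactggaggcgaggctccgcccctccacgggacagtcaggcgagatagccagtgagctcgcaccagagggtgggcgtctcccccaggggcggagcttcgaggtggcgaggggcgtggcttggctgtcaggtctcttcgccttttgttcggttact
CRB3: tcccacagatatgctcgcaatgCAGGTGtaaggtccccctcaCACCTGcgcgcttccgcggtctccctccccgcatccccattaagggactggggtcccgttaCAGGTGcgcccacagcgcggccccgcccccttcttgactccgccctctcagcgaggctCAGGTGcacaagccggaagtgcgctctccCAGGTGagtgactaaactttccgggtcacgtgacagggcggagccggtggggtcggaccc
The matches are letters only and not known sites. DSP and CRB3, with 2 and 5 matches, had log2 fold changes of 0.03 and -0.12, and JUP, with none, had -0.16. None of the 3 genes passed.

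The 6 EMT transcription factors had a median log2 fold change of -0.08, with 5 below 0 and 0 at an unadjusted limma p under 0.05. ZEB1 read 5.04, 5.13 and 5.10 in DLD-1/Mock and 5.04, 5.03 and 5.04 in DLD-1/DKK1, and ZEB2 had a log2 fold change of -0.09. The level of ZEB1 was at percentile 24.6 of all probe sets and cannot be set against a background level here. The log2 fold change of ZEB1 was -0.05 (interval -0.15 to 0.05), and median centring brought it to 0.00091. SNAI1, which encodes Snail, read 7.15, 7.32 and 7.30 in DLD-1/Mock and 7.24, 7.18 and 7.10 in DLD-1/DKK1, with an interval of the difference of -0.24 to 0.07. SNAI2, which encodes Slug, was the one factor above 0, reading 5.12, 5.08 and 4.99 in DLD-1/Mock and 5.10, 5.13 and 5.22 in DLD-1/DKK1 (log2 fold change 0.08). All of these groups overlapped. TWIST1 and TWIST2 had -0.07 and -0.17, the latter with the widest interval of all members, -0.47 to 0.13. TWIST2 read 7.81 in Mock 2 and between 7.27 and 7.52 on the other 5 arrays.

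A second ZEB2 probe set, at a mean of 3.85, had a log2 fold change of 0.00. The miR-200 family, which targets ZEB1 and ZEB2, was added after the members had been seen, because the arrays carry probe sets of its hairpins. The mature sequences from RefSeq (GRCh38.p14) are shown with the seed, bases 2 to 8, in capitals. They form 2 seed groups, AAUACUG in miR-200b, miR-200c and miR-429 and AACACUG in miR-200a and miR-141.
hsa-miR-200b-3p (chr1:1167160-1167181, +): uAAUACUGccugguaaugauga
hsa-miR-200c-3p (chr12:6963742-6963764, +): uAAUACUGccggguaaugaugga
hsa-miR-429 (chr1:1169055-1169076, +): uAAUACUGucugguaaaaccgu
hsa-miR-200a-3p (chr1:1167916-1167937, +): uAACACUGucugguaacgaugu
hsa-miR-141-3p (chr12:6964155-6964176, +): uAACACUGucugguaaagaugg
The probe sets read the hairpin or its precursor and not the mature RNA. In the AAUACUG group, MIR429 read 6.61, 6.74 and 6.62 in DLD-1/Mock and 6.35, 6.40 and 6.49 in DLD-1/DKK1, without overlap, and had a limma adjusted p of 0.375 at a log2 fold change of -0.24 (SE 0.06). MIR200B, its neighbour on chromosome 1, had -0.10, and MIR200C had -0.03. In the AACACUG group, MIR200A had 0.20 with an interval of -0.04 to 0.43, and MIR141 had 0.01. The estimates of MIR200A, MIR200B and MIR429, which lie close together on chromosome 1, differed in sign. The intervals of MIR200A and of MIR200B (-0.26 to 0.07) both included 0, whereas that of MIR429 ran from -0.38 to -0.11. The unadjusted limma p of MIR429 was 0.00447, and 10.1% of all genes had one under 0.05. Groups did not overlap for 19.5% of all genes. None of the 5 passed.

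The mesenchymal markers were all below 0 and none had an unadjusted limma p under 0.05. VIM, which encodes the intermediate filament vimentin, read 5.49, 5.50 and 5.69 in DLD-1/Mock and 5.34, 5.44 and 5.56 in DLD-1/DKK1, with overlapping groups. Its mean was 5.56 ± 0.11 (SD, n = 3) against 5.45 ± 0.11 (SD, n = 3), a log2 fold change of -0.11 with an interval of -0.30 to 0.08. It was -0.05 without Mock 3, -0.06 without DKK1 1 and -0.17 without DKK1 3. S100A4, a calcium-binding protein of motile cells, read 6.76, 6.82 and 6.85 in DLD-1/Mock and 6.62, 6.78 and 6.65 in DLD-1/DKK1. DKK1 2 lay above Mock 1, and the log2 fold change was -0.13 (SE 0.06; limma adjusted p = 0.546). CDH2, which encodes N-cadherin, the cadherin gained in EMT, had a log2 fold change of -0.02 and a mean of 5.68, percentile 34.7 of all probe sets.

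The junction genes were then set beside the mesenchymal genes. The 21 measured genes of the adherens junction, tight junction and desmosome had a median log2 fold change of 0.00, with 12 above and 9 below 0. The 9 mesenchymal markers and EMT factors had a median of -0.08, with 8 below 0, so that the medians differed by 0.08. On deviations from each gene's mean over the 6 arrays, junction median minus mesenchymal median was -0.03, -0.08 and 0.04 in DLD-1/Mock. It was 0.13, 0.003 and -0.0007 in DLD-1/DKK1. The groups overlapped, as Mock 3 lay above DKK1 2 and DKK1 3, and the pooled SD over arrays was 0.07. Of all genes 53.6% lay below 0. The mesenchymal genes had means of 5.06 to 7.52, which lie between percentiles 24.6 and 58.5, and of the 6233 genes in this range 73.7% lay below 0, with a median of -0.05. The 3 above the median brightness, SNAI1, TWIST1 and TWIST2, were all below 0, with a median of -0.08. The direction of genes in this range moved in part with Mock 2. Without Mock 2 the share was 63.4% and the median of these 6233 genes was -0.03, while that of the 9 mesenchymal genes was -0.04 with 8 below 0, and the 2 medians of junction and mesenchymal genes differed by 0.03. Leaving out DKK1 1 gave a difference of 0.05. After quantile normalisation or cyclic loess 7 of the 9 were below 0, and the medians of junction and mesenchymal genes differed by 0.03 in each. After median centring 6 were below 0, and the medians differed by 0.08.

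**Figure D3:**
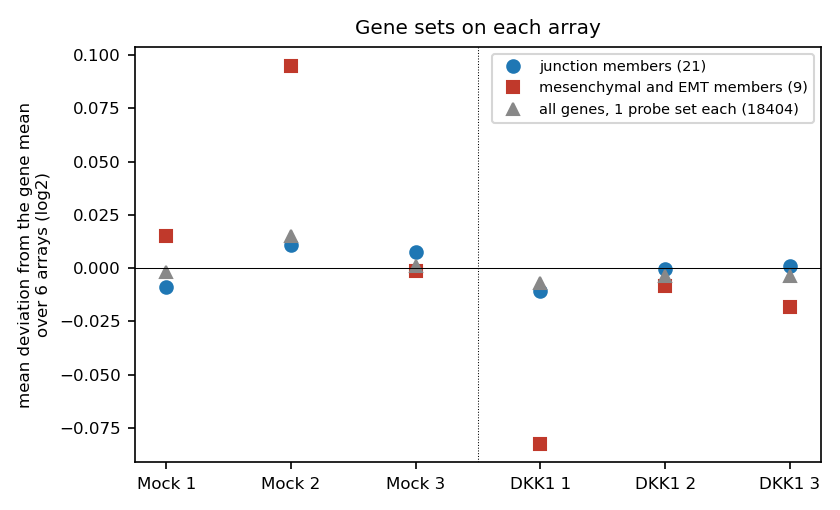
Mean deviation on each array from the gene's own mean over the 6 arrays (vertical axis, log2) for the 21 junction genes (circles), the 9 mesenchymal and EMT genes (squares) and all 18404 genes (triangles). The mesenchymal genes lie highest on Mock 2 at 0.09 and lowest on DKK1 1 at -0.08, and between -0.02 and 0.02 on the other 4 arrays.

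On single arrays, the mesenchymal genes deviated from their own means by 0.02, 0.09 and 0.00 in DLD-1/Mock and by -0.08, -0.01 and -0.02 in DLD-1/DKK1. The 2 outer arrays, Mock 2 and DKK1 1, held most of the range. Junction genes stayed between -0.01 and 0.01 on all 6 arrays. Markers of fibroblasts had a mean level of 6.15 to 6.26 in DLD-1/Mock and 6.12 to 6.21 in DLD-1/DKK1 over 7 genes, 5 of them below 0, and 0 had an unadjusted limma p under 0.05. Endothelial markers lay at 5.44 to 5.62 and at 5.40 to 5.47 over 4 genes, all below 0. A second PECAM1 probe set, at a mean of 3.88, was higher in DLD-1/DKK1 without overlap, at 0.06, against -0.10 for the one used. Leukocyte markers lay at 5.59 to 5.69 and at 5.50 to 5.54 over 5 genes. Of these 3 were below 0 and 2 above, PTPRC at 0.0005 and LYZ at 0.015. CD14 and CD68 (40%) had an unadjusted limma p under 0.05, against 10.1% of all genes. Both were lower in DLD-1/DKK1 without overlap, with log2 fold changes of -0.27 and -0.26, farther from 0 than that of any mesenchymal member. CD14 and CD68, at means of 6.23 and 7.35, lay in the range of the mesenchymal genes, where 73.7% of genes were below 0. Any link between these markers and the mesenchymal values was not tested.

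Other genes of the same pathways were taken from a list made by function, of which 73 of 76 were measured. With limma 0 of the 73 passed, while 13 (17.8%) had an unadjusted p under 0.05, 5 higher and 8 lower, beside 4.67% and 5.45% of all genes. The groups did not overlap for 20 of them, 9 higher and 11 lower, beside 19.5% of all genes. Their median log2 fold change was -0.01. The lists of further adherens junction genes (4 of 11) and mesenchymal markers (3 of 11) held 7 of the 13. The rest lay among tight junction genes (2 of 20), desmosome genes (1 of 7), epithelial regulators (2 of 14) and EMT factors (1 of 10). The 2 epithelial regulators, GRHL3 and ELF3, were both lower in DLD-1/DKK1 without overlap, at log2 fold changes of -0.17 and -0.16. Of the 14 in that list, 8 lay above 0 and 6 below.

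**Figure D4:**
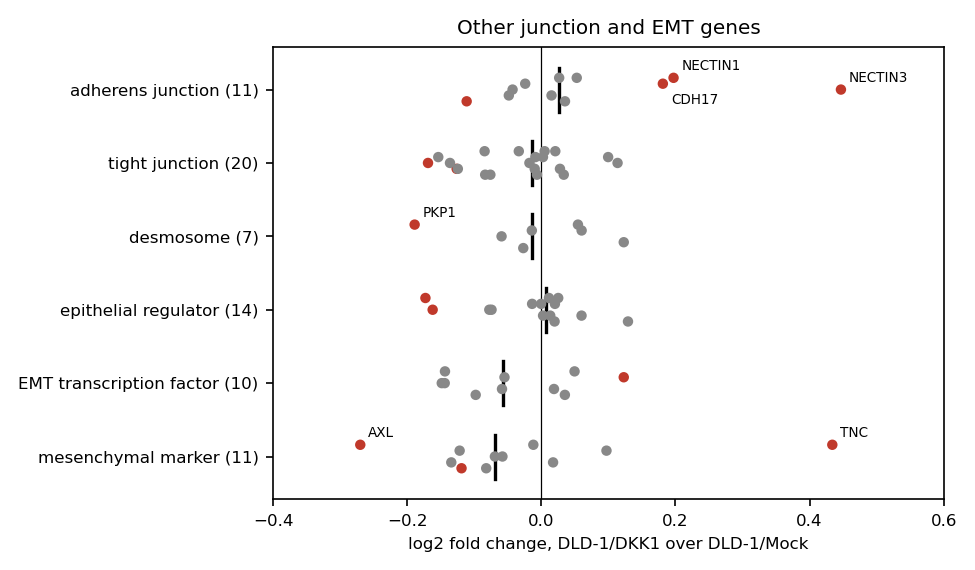
Difference with DKK1 against Mock as log2 fold change (horizontal axis) for 73 further junction and EMT genes by list, with list sizes in brackets. Each point is a gene, red where its unadjusted p was under 0.05, and black bars mark the medians. NECTIN3 lies at 0.45 and TNC at 0.43, and AXL lies lowest at -0.27.

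TNC and NECTIN3 had the smallest p-values of the 73. TNC, the matrix glycoprotein tenascin-C, counted here as a mesenchymal marker, read 7.86, 7.86 and 7.89 in DLD-1/Mock and 8.30, 8.39 and 8.22 in DLD-1/DKK1. The groups did not overlap. The log2 fold change was 0.43 (SE 0.05; limma adjusted p = 0.0696), with a sign opposite to the median of its list, -0.07. It passed in 3 of 16 alternative settings, over which its limma adjusted p ran from 0.0179 to 0.41. NECTIN3, an adhesion molecule of the adherens junction that binds nectins of the next cell, read 8.63, 8.44 and 8.63 in DLD-1/Mock and 8.96, 9.04 and 9.03 in DLD-1/DKK1, also without overlap. Its log2 fold change was 0.45 (SE 0.06; limma adjusted p = 0.118), and it passed in 1 of 16 settings, with adjusted p-values from 0.0352 to 0.456. Its relative NECTIN1 had 0.20, with all DLD-1/DKK1 arrays above all DLD-1/Mock arrays, whereas NECTIN2 and NECTIN4 had -0.02 and -0.05.

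CDH17, the liver-intestine cadherin, read 11.84, 11.82 and 11.85 in DLD-1/Mock and 12.01, 12.06 and 11.99 in DLD-1/DKK1, again without overlap, and had a limma adjusted p of 0.325 at a log2 fold change of 0.18 (SE 0.04). AXL, a receptor tyrosine kinase known from mesenchymal cells, read 6.13, 6.30 and 6.19 in DLD-1/Mock and 5.85, 5.92 and 6.03 in DLD-1/DKK1. Its log2 fold change was -0.27, while FN1, the fibronectin of the matrix, had -0.12. PKP1, a plakophilin of stratified epithelia, had -0.19 and did not overlap, while the further desmosome genes PKP4 and DSC1 lay higher in DLD-1/DKK1 without overlap, at 0.06 and 0.05. The limma adjusted p was 0.398 for AXL, NECTIN1 and PKP1. CTNNB1, which encodes beta-catenin, the partner of CDH1 at the membrane, had a log2 fold change of 0.04 and VCL, the vinculin of the actin link, one of 0.03.

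**Figure D5:**
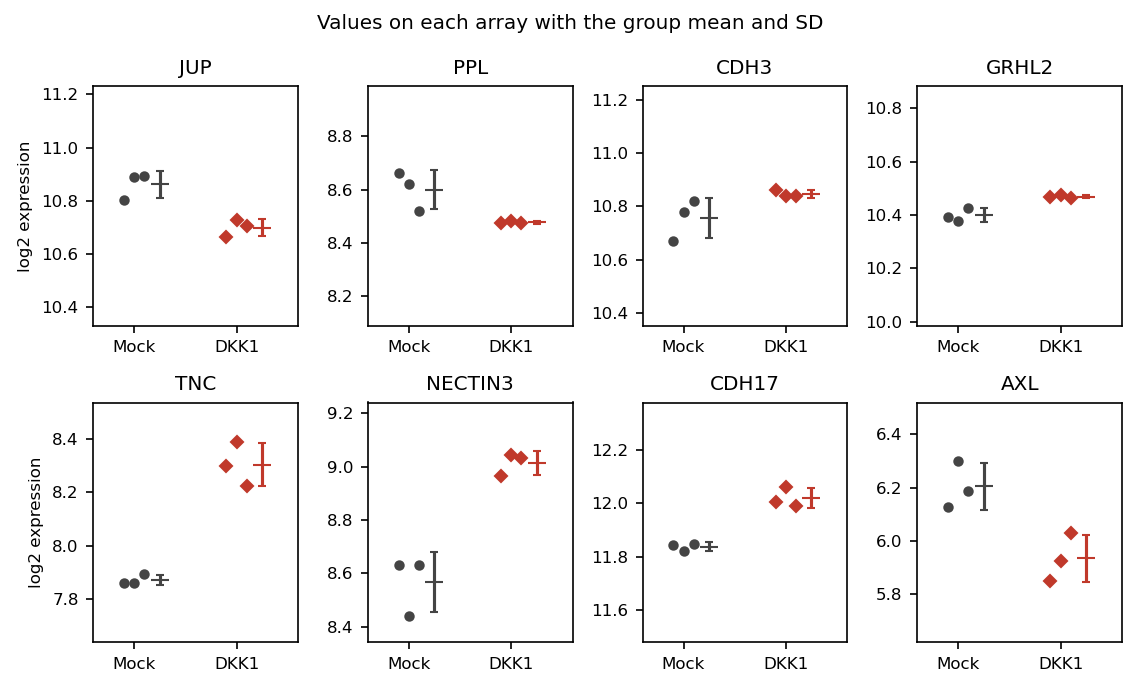
Log2 expression (vertical axis, the same span of 0.9 in every panel) of 8 genes on each array, where circles are DLD-1/Mock, diamonds DLD-1/DKK1 and the bars to their right each group's mean ± SD (n = 3). TNC and NECTIN3 show the widest gaps between the groups, and the nearest arrays of CDH3, GRHL2 and PPL lie within 0.05.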

How the data were processed

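RNA was taken from 3 dishes of each group, DLD-1/Mock and DLD-1/DKK1, which the methods call independent, was measured on Affymetrix Human Gene 1.0 ST arrays. The authors made the deposited log2 values in R with the affy package and robust multichip average, which corrects background, equalises array distributions and summarises the probes of a set; a change common to most transcripts would be removed and differences of dim genes compressed. For affy and R, versions are not given in the sources used here. P-values set the difference between the groups against the spread between dishes. All dishes of a group came from the same cells, DLD-1/Mock or DLD-1/DKK1. Other differences between these cells therefore cannot be told apart from DKK1.

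Groups came from the sample titles. Of 32321 probe sets, 19158 carried 1 symbol in the platform annotation, 1388 several and 11775 none. Symbols were updated by gene number through RefSeq (GRCh38.p14), matching 19128. The array's build was not given, so no probe coordinates are printed. All probe sets were fitted with limma 3.58.1 (lmFit, eBayes; R 4.3.3), two-sided tests, residual degrees of freedom 4, prior 2.56, with Benjamini-Hochberg adjustment over all 32321. Intervals are at 95%. Members and lists were chosen with earlier results of these data known. All members were accounted for; those given per array had an unadjusted p under 0.05 or were CDH1, TJP1, DSP, GRHL2, ZEB1, SNAI1, SNAI2 or VIM, and from the other genes the 6 with the smallest p were named. CDH3, CGN, TWIST2, S100A4, the further genes given only as log2 fold changes and the miR-200 family were chosen for mention after their values were seen or outside that rule. Alternatives were array weights, median centring, cyclic loess, quantile normalisation, a prior both trended and robust, unmoderated variances, leaving out dim probe sets or those with no gene, the mean over a gene's probe sets, the replicate number as a block and each array left out. The steps were tested on simulated data. Figures were drawn with matplotlib 3.10.9.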

Additional observations from a re-analysis of the deposited data

How the results depend on the processing

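The number of members past the threshold was 0 under all 16 alternatives, with a smallest limma adjusted p among members of 0.249 above the median brightness, where 26 of the 33 were tested. Members with an unadjusted limma p under 0.05 numbered 2 in the fit reported, JUP and PPL. They numbered 4 after median centring, CDH3, CGN, GRHL2 and SNAI2, all higher, with neither JUP nor PPL among them, 1 with the replicate number as a block and 1 to 3 with 1 array left out. With the block and without Mock 1, Mock 2, DKK1 1 or DKK1 3, JUP was the one left. Of the other junction and EMT genes, 1 passed above the median brightness (TNC), 2 among annotated probe sets (NECTIN3 and TNC) and 1 with array weights (TNC), and 0 with any array left out. DKK1 kept its log2 fold change of 7.05 without moderation but lost its call there (limma adjusted p = 0.0646), and ran from 6.91 to 7.27 with 1 array left out. CDH1 turned to -0.0119 after quantile normalisation and -0.0112 after cyclic loess, and ZEB1 to 0.00091 after median centring. JUP, PPL, TJP1, DSP, GRHL2, SNAI1, SNAI2, VIM, TNC, NECTIN3, CDH17, AXL, NECTIN1 and PKP1 kept their sign in every alternative they entered. The medians of junction and mesenchymal genes differed by 0.0289 (cyclic loess) to 0.119 (without DKK1 3) over the alternatives. All probe sets past the threshold numbered 28 in the fit reported and 1 to 98 in the alternatives. The replicate numbers were not shown to pair the dishes, since the deviations of arrays with the same number from their group means correlated at 0.10, 0.01 and -0.14, and with the replicate block 1 probe set passed in all. Array medians ran from 6.76 to 6.86, and median centring moved every log2 fold change upwards by the same amount. The median over all probe sets went from -0.006 to 0.046 with it. Beyond this, why these counts moved was not tested, apart from the smaller number of arrays or probe sets that some alternatives leave. Dim genes such as ZEB1, SNAI2, CDH2 and VIM lie at percentiles 24.6 to 34.7 of all probe sets, which limits what their values can show.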
